A study of Danio rerio with 20 samples.

Results

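After a zebrafish caudal fin is cut, 85 of the 32105 genes counted were raised at 1 day post amputation (dpa) in wildtype fins. By 4 dpa they lay near their uninjured level on the scale of the rule given below. They were chosen by their wildtype values alone. A gene was taken when its mean over both wildtype 1 dpa libraries was at least 5 CPM (the read count scaled to a common library total), when log2(mean CPM + 0.5) was at least 2.5 above the 0 dpa value, and when the 4 dpa value lay within 1 of the 0 dpa value. Of 244 genes that passed the level and the rise, 151 stayed higher by 1 or more at 4 dpa and 8 were lower by 1 or more. On this scale the set holds the short-lived share of the 1 dpa response. For genes with few counts, the added 0.5 makes the 4 dpa limit loose, and some members had not gone back. In wildtype fins il11b had 5 and 2 counts at 0 dpa and 14 and 19 at 4 dpa. ENSDARG00000099438 had 2 and 0 counts at 0 dpa and 15 and 9 at 4 dpa. A ceiling of 300 genes in the rule was not reached. Because the wildtype values chose the genes, those values are a description and are not tested, and the tests below use the mutant and the sorted cells.

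RNA was sequenced from unsorted fins of fosl1a KO fish and fosl1a WT fish at 0, 1 and 4 dpa (12 libraries) and from sp7+ and sp7- cells sorted at 0 and 4 dpa from Tg(sp7:EGFP) fins (8 libraries), with 2 libraries in each of the 10 groups. Tissue is called fin at 0 dpa and blastema at 1 and 4 dpa in the labels of the fosl1a experiment, and both genotypes went through the same amputation. The mutant was made with CRISPR-Cas9. In the study's regeneration measurements and its RNA comparison, the mutants were homozygous and the wildtype fish were their littermates. EGFP in the sorted line follows sp7 regulatory sequence, which is active in differentiating and mature osteoblasts. The study used adult fish of mixed ages and does not give their sex. The study made several independent fosl1a alleles, and heterozygous founders with the same allele were crossed. The homozygous mutants were tw4 in its plot of regenerate lengths and tw1 in its RNA comparison. Sorted cells came from pools of several fins. At 0 dpa the fins were dissociated with TrypLE and then Liberase, while 4 dpa tissue beyond the amputation plane received a longer TrypLE step alone. In sorted cells, time and dissociation therefore cannot be told apart.

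Wounded tissue first switches on genes that need no new protein synthesis, among them the AP-1 transcription factors, which are dimers of Fos, Jun and ATF family proteins. The same early programme holds its own brakes, such as the dual specificity phosphatases that switch off MAP kinases, and it is followed by secreted signals, receptors and adhesion proteins as epidermis closes over the stump. fosl1a encodes Fra1, a Fos family subunit of AP-1, and is itself one of the 85 genes. Roles were assigned to the members after the members were known: 6 are AP-1 or CREB family factors, 10 other nuclear regulators, 8 kinases, phosphatases or cell cycle regulators, 8 ligands or hormones, 8 surface receptors, 7 clotting and protease signalling genes, 7 epithelial adhesion and barrier genes, 5 axon growth and cytoskeleton genes, 7 transport and metabolism genes and 19 other or uncharacterised genes.

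Library totals lay between 10194983 and 31507208 counts in unsorted fins and between 28906309 and 50312755 counts in sorted cells. The shallowest library, fosl1a KO 0 dpa replicate 1, stood apart from its partner (r = 0.9503 across genes, the lowest of the 10 replicate pairs), with summed osteoblast markers of 779.7 CPM against 3110 CPM in replicate 2, and 14 members differed by over 2-fold between these libraries, against 0 to 6 in the other groups. Calls of named members that change without this library are given below. The sort was checked on markers: 10 osteoblast markers, all of them detected in every group, summed to 2065 to 6369 CPM in sp7+ cells and 54.7 to 70.6 CPM in sp7- cells at 0 dpa. Most of the sp7+ sum was col10a1a (1770 and 5613 CPM), and runx2a differed little (6.35 and 7.21 against 6.51 and 3.96 CPM). Of the epidermal markers, krt4 (35992 and 29420 against 1149 and 1297 CPM), cldne and epcam were higher in sp7+ cells. krt5, krt91, tp63 and cyt1 were lower and cdh1 overlapped. The sp7+ cells thus carried epidermal transcripts as well. No member is on a marker list for osteoblasts, epidermis, fibroblasts, leukocytes, erythrocytes, muscle, endothelium or pigment cells. All levels below are normalized CPM (on the TMM-scaled library size), all changes are fitted log2 changes ± standard error, and values of a group are given as replicate 1 and replicate 2. Each value is 1 library, nothing says that libraries of unsorted fins came from separate animals, and p-values measure the spread between these libraries.

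In wildtype fins the rises at 1 dpa ran from 2.51 on the log2(CPM + 0.5) scale for tnfrsf18, a TNF receptor family gene, to over 5 for the highest members. Just inside the threshold were tnfrsf18 (2.51), WDR89 (2.52) and epha7 (2.52), and just outside it krt4 and KDM6B (2.48 each). The 4 dpa limit fell between epha2a (0.96), ENSDARG00000099438 (0.98) and il11b (0.99) inside and adamtsl7 (1.00), tgm8 (1.01) and relt (1.01) outside. On level, in CPM of the column total, teni.1 (5.04 CPM), ENSDARG00000098925 (5.14 CPM) and uts2a (6.61 CPM) were the lowest members. ENSDARG00000083837 (4.82 CPM), zc2hc1c (4.81 CPM) and zgc:174917 (4.74 CPM) missed the threshold.

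fosl1a (ENSDARG00000015355) itself rose in the mutant at 1 dpa, with wildtype values that the choice of members had fixed as low at 0 dpa and high at 1 dpa. fosl1a had 11.11 and 9.20 CPM at 0 dpa, 34.2 and 46.1 CPM at 1 dpa, and 2.24 and 2.98 CPM at 4 dpa in mutant fins, against 2.71 and 3.96 CPM at 0 dpa, 119 and 140.2 CPM at 1 dpa, and 2.31 and 3.40 CPM at 4 dpa in wildtype fins. Both mutant libraries were above both wildtype libraries at 0 dpa and below them at 1 dpa, and the genotypes overlapped at 4 dpa. The mutant rise was 1.99 ± 0.26 (edgeR against a 2-fold change, adjusted p = 0.00487). A mutant allele can still be transcribed, so these counts do not check the genotype.

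**Figure D1:**
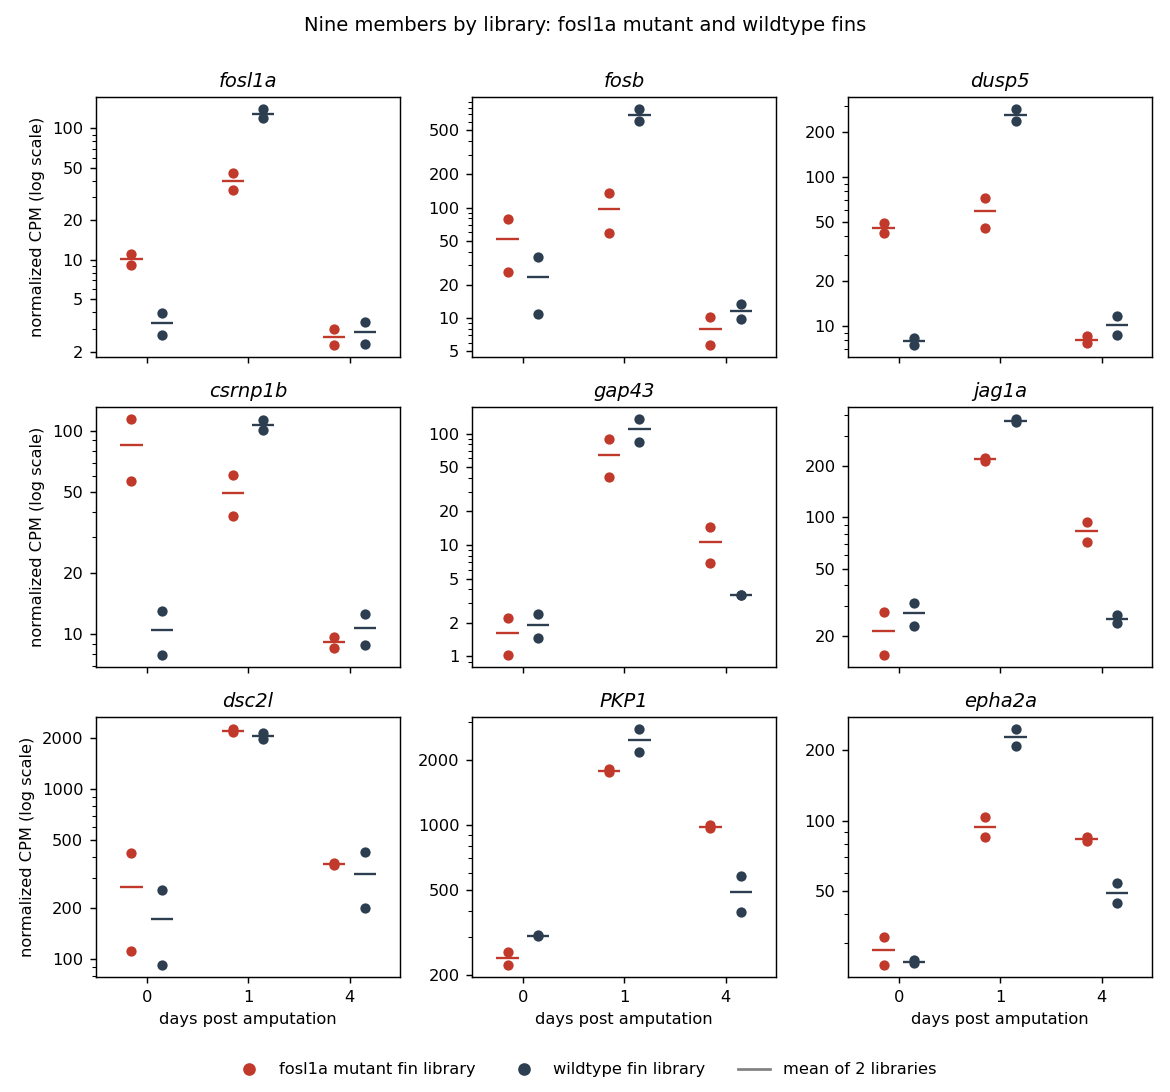
Normalized CPM (log scale) of 9 members at 0, 1 and 4 dpa, with mutant libraries left of wildtype libraries at each time, each point a library and each bar the mean of 2. The mutant points of dusp5 and csrnp1b are already high at 0 dpa (41.9 and 49.0 CPM, and 56.9 and 115 CPM), whereas those of PKP1, jag1a and epha2a are still high at 4 dpa.

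Most members also rose at 1 dpa in the mutant. Of the 85, 62 were raised at 1 against 0 dpa (edgeR, tested against a 2-fold change, adjusted p below 0.05), against 4.78% of the 20157 genes tested, and 0 were lowered, against 5.24% of all genes. The median change was 2.60 for the members and -0.01 for all genes, with 81 members above 0 and 4 below, the lowest at -0.85 and so within the 2-fold limit of the test. The median was the same with the genes without a count at 0 dpa set to their lower bound. Under the same rule applied to the mutant libraries, 45 genes qualified, and 19 genes were in both sets (22.4% of the members and 42.2% of the mutant's set). Of the members, 48 rose by less than 2.5 in the mutant, 48 were outside the 4 dpa window (23 above it and 25 below it) and 8 were under 5 CPM at 1 dpa. The rule fixed these limits in wildtype, so the choice favours members outside them in the mutant. The mutant rise was smaller than the wildtype rise in 75 of 85 members, a count that the choice by the wildtype rise favours. The number raised was 61 without KO 0 dpa replicate 1, and 56 of these were among the 62. rln1, SBNO2, sox21a, abhd17b, si:ch1073-303k11.2 and 5S_rRNA were the members lost, and epha4a, f3a, pkp2, pnp5a and zgc:136870 were gained. In bulk tissue, fewer cells of a type and less RNA per cell cannot be told apart. Summed leukocyte markers, 13 of 17 with an identifier in the table, were 197 to 232 CPM in mutant and 152 to 168 CPM in wildtype fins at 1 dpa. In mutant fins, summed osteoblast markers were 201 and 210 CPM at 1 dpa against 779.7 and 3110 CPM at 0 dpa. Summed erythrocyte markers, 3 of 6 with an identifier, were 72.3 and 73.1 CPM against 22.2 and 10.4 CPM. Sums of the other marker lists overlapped between these times. Within the epidermal list, krt4, epcam, cdh1 and tp63 were higher at 1 dpa, and krt91 and cyt1 lower. The part of these markers, leukocyte markers included, in these values was not tested.

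**Figure D2:**
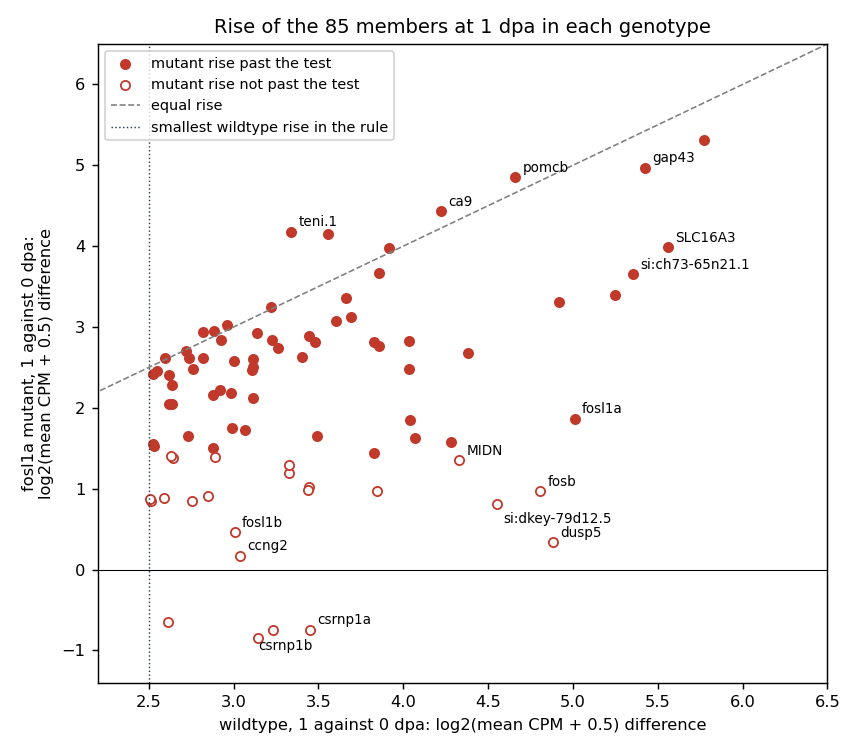
Rise at 1 dpa in the mutant (vertical) against wildtype (horizontal), both as differences of log2(mean CPM + 0.5), 1 point per member, filled where the mutant rise passed the test (62 of 85). Members under the dashed line of equal rise (75 of 85) rose less in the mutant, and csrnp1a and csrnp1b lie below 0.

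The AP-1 and CREB family factors split. Raised in the mutant at 1 dpa were 4 of 6 (4.78% of all genes): fosl1a, ATF3, cremb and creb5a. ATF3, a stress-induced partner in AP-1 dimers, had 5.04 and 6.56 CPM at 0 dpa, 36.9 and 59.1 CPM at 1 dpa, and 3.14 and 4.82 CPM at 4 dpa in mutant fins, against 4.67 and 2.64 CPM at 0 dpa, 35.8 and 41.9 CPM at 1 dpa, and 6.02 and 8.39 CPM at 4 dpa in wildtype fins. The genotypes overlapped at 1 dpa, and the mutant libraries lay above the wildtype ones at 0 dpa and below them at 4 dpa. ATF3 rose by 3.04 ± 0.34 in the mutant (edgeR adjusted p = 0.000594). cremb, a cAMP-responsive factor gene, rose by 3.24 ± 0.33 (edgeR adjusted p = 0.00034) and creb5a by 3.06 ± 0.23 (adjusted p = 5.07e-05) in the mutant.

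fosb and fosl1b, both Fos family genes, did not pass. fosb had 26.01 and 78.5 CPM at 0 dpa, 59.4 and 137 CPM at 1 dpa, and 5.66 and 10.2 CPM at 4 dpa in mutant fins, against 10.8 and 35.8 CPM at 0 dpa, 606 and 778 CPM at 1 dpa, and 9.84 and 13.3 CPM at 4 dpa in wildtype fins. Mutant values at 1 and 0 dpa overlapped, and both mutant libraries at 1 dpa were below both wildtype ones. The mutant change was 0.90 ± 0.61 (edgeR adjusted p = 1). fosl1b had 37.0 and 63.2 CPM in mutant and 102 and 529.8 CPM in wildtype fins at 1 dpa. Its wildtype libraries at 1 dpa differed by over 5-fold, and both were above both mutant libraries. Its mutant change was 0.58 ± 0.63 (edgeR adjusted p = 1).

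Of the 10 other nuclear regulators, 4 were raised at 1 dpa in the mutant (SKIL, ago3b, SBNO2 and sox21a), against 4.78% of all genes. The median change of the group was 1.18. csrnp1b, which encodes a cysteine- and serine-rich nuclear protein, had 56.9 and 115 CPM at 0 dpa, 38.2 and 60.9 CPM at 1 dpa, and 8.57 and 9.72 CPM at 4 dpa in mutant fins, against 7.88 and 13.1 CPM at 0 dpa, 113 and 101 CPM at 1 dpa, and 8.89 and 12.6 CPM at 4 dpa in wildtype fins. Mutant libraries at 1 and 0 dpa overlapped, and both at 0 dpa were above both wildtype libraries at 0 dpa. Its paralog csrnp1a had 9.46 and 11.07 CPM at 0 dpa, 6.69 and 5.29 CPM at 1 dpa, and 3.26 and 2.94 CPM at 4 dpa in mutant fins, against 2.68 and 3.45 CPM at 0 dpa, 34.2 and 47.5 CPM at 1 dpa, and 3.06 and 2.30 CPM at 4 dpa in wildtype fins. Neither change at 1 dpa passed (csrnp1b -0.79 ± 0.35 and csrnp1a -0.79 ± 0.23, edgeR adjusted p = 1 for each). MIDN, whose mouse protein midnolin carries nuclear proteins to the proteasome, had 223 and 201 CPM in mutant and 802 and 790.0 CPM in wildtype fins at 1 dpa, and a mutant change of 1.32 ± 0.25 (adjusted p = 0.212). SKIL, a corepressor of TGF-beta signalling, rose by 2.45 ± 0.32 (adjusted p = 0.00241).

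Among the 8 kinases, phosphatases and cell cycle regulators, 4 were raised (abl2, snrkb, dok1a and GSK3B), against 4.78% of all genes. dusp5, whose product dephosphorylates the MAP kinase ERK, had 41.9 and 49.0 CPM at 0 dpa, 45.5 and 72.1 CPM at 1 dpa, and 7.66 and 8.54 CPM at 4 dpa in mutant fins, against 7.41 and 8.31 CPM at 0 dpa, 237 and 285 CPM at 1 dpa, and 8.69 and 11.6 CPM at 4 dpa in wildtype fins. Its mutant levels at 1 and 0 dpa overlapped (0.37 ± 0.23, edgeR adjusted p = 1). ccng2, an atypical cyclin tied to cell cycle arrest, had 90.6 and 122 CPM at 0 dpa, 97.4 and 144 CPM at 1 dpa, and 16.1 and 16.8 CPM at 4 dpa in mutant fins, against 21.5 and 32.1 CPM at 0 dpa, 213 and 258 CPM at 1 dpa, and 19.9 and 27.2 CPM at 4 dpa in wildtype fins. The change of ccng2 was 0.19 ± 0.27 (adjusted p = 1) and that of DUSP2, a related phosphatase, 0.93 ± 0.44 (adjusted p = 0.945). PLK3, a polo-like kinase, did not pass either (0.94 ± 0.37, adjusted p = 0.937). The kinase gene abl2 rose by 2.64 ± 0.29 (adjusted p = 0.000853).

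All 8 ligands and hormones were raised at 1 dpa in the mutant, against 62 of the 85 members and 4.78% of all genes. Roles were assigned with the values known, so nothing is read from differences between role groups. The cytokine gene il11b had 0.0788 and 0.0911 CPM at 0 dpa, 6.14 and 11.15 CPM at 1 dpa, and 0.197 and 0.613 CPM at 4 dpa in mutant fins, against 0.149 and 0.0852 CPM at 0 dpa, 7.65 and 10.99 CPM at 1 dpa, and 0.703 and 0.741 CPM at 4 dpa in wildtype fins. pomcb, a proopiomelanocortin hormone precursor, had 12.4 and 15.9 CPM in mutant and 9.71 and 16.9 CPM in wildtype fins at 1 dpa. With 506 and 1 counts at 1 and 0 dpa in the mutant, pomcb had a ratio of 517 (95% counting interval 92.5 to 20478). The genotypes overlapped at 1 dpa for il11b and for pomcb. jag1a, a Notch ligand, had 15.4 and 27.6 CPM at 0 dpa, 224 and 215 CPM at 1 dpa, and 71.9 and 93.3 CPM at 4 dpa in mutant fins, against 23.1 and 31.5 CPM at 0 dpa, 363 and 377 CPM at 1 dpa, and 23.9 and 26.7 CPM at 4 dpa in wildtype fins. jag1a rose by 1.93 ± 0.27 at 4 against 0 dpa in the mutant (edgeR adjusted p = 0.0063). Both mutant libraries of jag1a at 4 dpa were above both wildtype ones, as were those of 32.9% of all genes tested. hbegfb, an EGF receptor ligand gene, had 51.4 and 52.1 CPM in mutant and 28.0 and 39.2 CPM in wildtype fins at 1 dpa, and rose by 2.81 ± 0.37 in the mutant (adjusted p = 0.00224). rln1, a relaxin family hormone, was low in the mutant at 1 dpa, with 1.17 and 0.680 CPM against 6.25 and 12.02 CPM in wildtype fins, and its ratio in the mutant was 16.4 (95% counting interval 4.17 to 141, from 32 and 2 counts). As given above, rln1 was among the raised members lost without KO 0 dpa replicate 1. The remaining ligands were the proglucagon gene gcga, the urotensin gene uts2a and the platelet-derived growth factor gene pdgfba, which had 103 and 91.7 CPM in mutant and 137 and 129 CPM in wildtype fins at 1 dpa.

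Of the 8 surface receptors, 6 were raised at 1 dpa in the mutant and 5 at 4 dpa, both against the same 0 dpa libraries. Of all genes, 4.78% and 6.93% were raised at these times. The count depends on the roles, which were assigned with the values known. The receptor genes F2R, F2RL2, f2rl1.2 and PTGIR were placed with the clotting genes. Their mutant changes at 4 dpa were 0.75, -0.17, -2.38 and 0.65, and none was raised. The 5 were epha2a, epha7, plxnb1a, TGFBR2 and PMEPA1, the last a transmembrane inhibitor of TGF-beta signalling. Without KO 0 dpa replicate 1, epha2a, TGFBR2 and PMEPA1 were lost, and adgrb1b and epha4a were gained at 4 dpa. epha2a, a receptor for ephrins, had 24.2 and 32.0 CPM at 0 dpa, 85.8 and 104 CPM at 1 dpa, and 85.4 and 82.0 CPM at 4 dpa in mutant fins, against 25.5 and 24.7 CPM at 0 dpa, 209.6 and 246 CPM at 1 dpa, and 54.2 and 44.8 CPM at 4 dpa in wildtype fins. The change at 4 against 0 dpa was 1.57 ± 0.20 in the mutant (adjusted p = 0.0146). plxnb1a, a semaphorin receptor, had 50.9 and 37.0 CPM in mutant and 19.4 and 12.6 CPM in wildtype fins at 4 dpa, and TGFBR2, a receptor for TGF-beta, had 62.5 and 60.9 CPM in mutant and 22.7 and 24.7 CPM in wildtype fins. For epha2a, plxnb1a and TGFBR2, both mutant libraries at 4 dpa were above both wildtype ones, as in 32.9% of all genes tested. The rule held wildtype near its 0 dpa level at 4 dpa, so nothing is read from this direction. The 4 dpa changes in the mutant were 2.21 ± 0.25 for plxnb1a (adjusted p = 0.0011) and 1.58 ± 0.20 for TGFBR2 (adjusted p = 0.0145). adgrb1b, an adhesion G protein-coupled receptor, had 1.78 and 1.41 CPM in mutant and 8.73 and 12.8 CPM in wildtype fins at 1 dpa. Its change at 4 dpa in the mutant did not pass (2.73 ± 0.77, adjusted p = 0.0682) but passed without KO 0 dpa replicate 1 (adjusted p = 0.00444), which had 4 counts of adgrb1b where replicate 2 had 0.

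In the next groups most members rose. Raised at 1 dpa were 5 of 7 clotting genes and 6 of 7 epithelial genes. So were 5 of 5 axon growth and cytoskeleton genes and 6 of 7 transport and metabolism genes, against 4.78% of all genes. These roles too were assigned with the values known. Without KO 0 dpa replicate 1, abhd17b was lost from these groups, and f3a, pkp2 and pnp5a were gained. F2R, the thrombin receptor, rose by 3.52 ± 0.29 (adjusted p = 6.90e-05), whereas f2rl1.2, a protease-activated receptor gene, changed by 0.90 ± 0.29 (edgeR adjusted p = 1). Among desmosome genes, dsc2l, a desmocollin, had 2256 and 2178 CPM in mutant and 1968 and 2144 CPM in wildtype fins at 1 dpa, and rose by 3.06 ± 0.62 in the mutant (adjusted p = 0.017). Both mutant libraries were above both wildtype ones, by a margin smaller than the gap between the wildtype libraries. Summed epidermal markers were 114000 to 135425 CPM in mutant and 115815 to 125462 CPM in wildtype fins at 1 dpa. Single markers differed in both directions. krt4 had 16989 and 20086 CPM in mutant and 24924 and 37499 CPM in wildtype fins, and krt5 71123 and 88613 CPM against 69543 and 60884 CPM. epcam was also lower in both mutant libraries and krt91 higher, and the other markers overlapped. The part of epidermal markers was not tested. PKP1, a plakophilin, had 257 and 223 CPM at 0 dpa, 1810.4 and 1749.8 CPM at 1 dpa, and 965 and 996 CPM at 4 dpa in mutant fins, against 307 and 303 CPM at 0 dpa, 2185 and 2778 CPM at 1 dpa, and 579 and 392.5 CPM at 4 dpa in wildtype fins. It rose by 2.03 ± 0.23 at 4 against 0 dpa in the mutant (adjusted p = 0.0014). gap43, a growth cone protein gene, had 1.02 and 2.23 CPM at 0 dpa, 40.6 and 88.7 CPM at 1 dpa, and 6.88 and 14.4 CPM at 4 dpa in mutant fins, against 1.46 and 2.39 CPM at 0 dpa, 84.6 and 135 CPM at 1 dpa, and 3.56 and 3.55 CPM at 4 dpa in wildtype fins. stmn1b, a stathmin family gene of microtubule turnover, had 7.01 and 4.92 CPM at 0 dpa, 40.8 and 33.8 CPM at 1 dpa, and 4.64 and 6.86 CPM at 4 dpa in mutant fins, against 4.31 and 3.37 CPM at 0 dpa, 72.9 and 77.6 CPM at 1 dpa, and 7.43 and 6.71 CPM at 4 dpa in wildtype fins. SLC16A3, a lactate transporter gene, had 20.6 and 17.1 CPM in mutant and 46.3 and 42.4 CPM in wildtype fins at 1 dpa and rose by 4.69 ± 0.29 in the mutant (adjusted p = 1.16e-05). f3a, which encodes tissue factor, the trigger of clotting, had 16.4 and 12.8 CPM at 0 dpa, 39.1 and 42.9 CPM at 1 dpa, and 7.74 and 13.1 CPM at 4 dpa in mutant fins, against 8.18 and 8.44 CPM at 0 dpa, 61.1 and 77.1 CPM at 1 dpa, and 9.84 and 10.7 CPM at 4 dpa in wildtype fins. Its mutant libraries at 1 dpa were above those at 0 dpa and below the wildtype ones at 1 dpa, and the mutant change missed the threshold (1.49 ± 0.24, adjusted p = 0.0724) but not without KO 0 dpa replicate 1 (1.65, adjusted p = 0.0437). MFSD2A, a lipid transporter gene, had 19.3 and 24.6 CPM at 0 dpa, 80.7 and 80.5 CPM at 1 dpa, and 7.23 and 8.58 CPM at 4 dpa in mutant fins, against 11.6 and 8.23 CPM at 0 dpa, 187 and 177 CPM at 1 dpa, and 13.2 and 12.1 CPM at 4 dpa in wildtype fins. ca9, a carbonic anhydrase gene induced by low oxygen, had 0 counts in both mutant fins at 0 dpa and 338 at 1 dpa, at least 115-fold higher against a floor of 3 counts over the group.

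The other 19 members include genes of no known role in the annotation used. Of the 19, 14 were raised, against 4.78% of all genes. rnf41l had no count at 0 dpa in either genotype and was at least 52.2-fold higher at 1 dpa in the mutant by the same floor. ENSDARG00000099438 was at least 229.8-fold higher. si:ch73-65n21.1 and si:ch73-65n21.2, si:ch211-241e1.3 and si:ch211-241e1.4, and 5S_rRNA are uncertain, since neighbouring or overlapping genes and repeated copies could share reads. si:ch73-65n21.1 had 0 and 0.0911 CPM at 0 dpa, 6.93 and 5.18 CPM at 1 dpa, and 1.18 and 1.47 CPM at 4 dpa in mutant fins, against 0.0892 and 0.0426 CPM at 0 dpa, 24.0 and 23.4 CPM at 1 dpa, and 0.653 and 0.234 CPM at 4 dpa in wildtype fins. Its counts in the mutant gave a ratio of 108 at 1 against 0 dpa (95% counting interval 29.6 to 901), and si:ch73-65n21.2 was at least 55.6-fold higher.

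Set beside wildtype, the mutant libraries are given as a description, because the wildtype libraries chose the members. That choice favoured mutant values above wildtype at 0 dpa and below it at 1 dpa. It also held wildtype near its 0 dpa level at 4 dpa on the log2(mean CPM + 0.5) scale and left the mutant free. This favours a larger change from 0 to 4 dpa in the mutant, in either direction. Both mutant libraries were above both wildtype libraries at 0 dpa for 38 members, against 14.5% of all genes, and below them for 7, against 14.4%. At 1 dpa both mutant libraries were below both wildtype libraries for 64 members, against 24.9% of all genes, and above them for 4, against 28.6%. Nothing is read from these counts. On the log2(mean CPM + 0.5) scale, the most negative mutant minus wildtype values at 1 dpa were -2.72 for fosb, -2.64 for rln1, -2.55 for csrnp1a and -2.50 for fosl1b. The most positive were 1.08 for teni.1, a gene of no role given here, 0.73 for hbegfb, 0.50 for tgm5l and 0.46 for uts2a. Summed fibroblast markers, 7 of 8 with an identifier, were 2720 to 14528 CPM in mutant and 10193 to 12228 CPM in wildtype fins at 0 dpa, and their part was not tested.

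**Figure D3:**
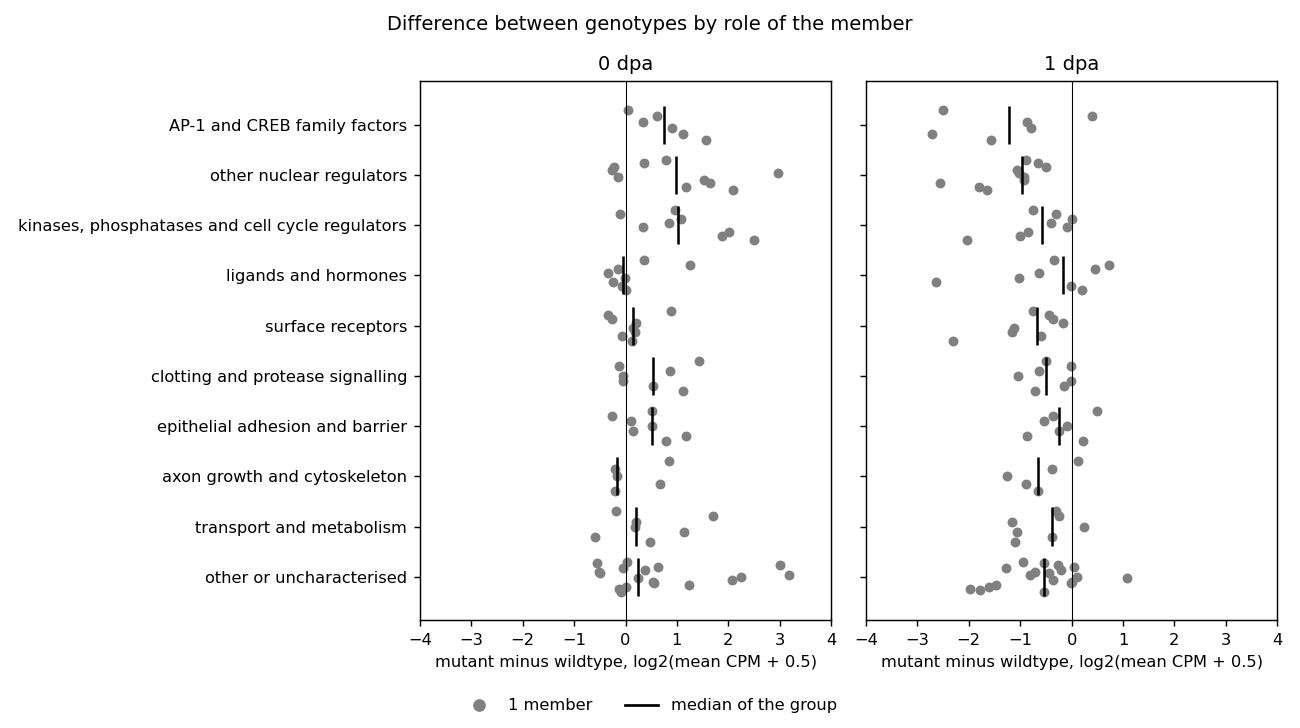
Difference of log2(mean CPM + 0.5), mutant minus wildtype, at 0 dpa (left) and 1 dpa (right), 1 point per member by role, with the median of each role as a bar. At 1 dpa most points lie left of 0 and fosb (-2.72) lies furthest, a direction that the choice of members favours.

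At 4 dpa most members were lower in the mutant than at 1 dpa, and some were above their 0 dpa level. Against 1 dpa, 59 members were lowered at 4 dpa in the mutant (3.9% of all genes), with a median of -2.61 for members and -0.11 for all genes. Against 0 dpa, 17 were raised (6.93% of all genes) and 18 lowered (8.06% of all genes). These counts share the mutant 0 dpa libraries with the count at 1 dpa. Wildtype was held near its 0 dpa level by the rule, loosely where counts were few, so these counts of members do not show a difference between genotypes. The 17 include PKP1, jag1a, SKIL, gap43, CHST13 and fam167b beside the 5 receptors. Also among them are ENSDARG00000099438, si:ch73-65n21.1, si:ch73-65n21.2, ca9 and uts2a. These had 0 to 2 counts over both mutant libraries at 0 dpa, so the size of their change is uncertain. The 18 lowered include fosl1a, fosb, dusp5, ccng2, PLK3 and both csrnp1 genes. Without KO 0 dpa replicate 1, 11 were raised and 16 lowered. Lost from the raised members were epha2a, TGFBR2, PMEPA1, SKIL, gap43, CHST13, si:ch1073-526c11.2 and ENSDARG00000099438. Of the lowered members, hbegfb was among those lost. Gained among the raised were adgrb1b and epha4a. Without KO 4 dpa replicate 2, 10 were raised.

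In sorted cells many members stood above whole fins at 0 dpa. Of 80 members tested in both experiments, 29 were at least 4-fold higher in each of the 4 sorted 0 dpa libraries than in either wildtype fin at 0 dpa, against 1.59% of 17830 genes tested in both. The 5 members not tested in sorted cells, under the filter on low counts, were pomcb, uts2a, rnf41l, teni.1 and ca9. The sorted and unsorted tables were normalized separately, and preparation, strain and dissociation cannot be told apart. The rule chose low wildtype 0 dpa values, which favours this direction. fosl1a had 1457 and 1286 CPM in sp7+ cells and 1464 and 1428 CPM in sp7- cells at 0 dpa, against 2.71 and 3.96 CPM in wildtype fins at 0 dpa and 119 and 140.2 CPM at 1 dpa. The lowest sorted library was 324-fold above the highest fin library at 0 dpa. dusp5 had 1402 and 1101 CPM in sp7+ and 1123 and 1051 CPM in sp7- cells, with a 127-fold gap, and fosb had 1684 and 1867 CPM in sp7+ and 1869 and 1892 CPM in sp7- cells, with a 47.0-fold gap. epha2a was 34.9-fold and tgm5l, a transglutaminase gene, 37.1-fold above by the same measure. In 16 members, all 4 sorted 0 dpa libraries were also above both wildtype 1 dpa libraries, against 13.5% of all genes. Some members were low in sorted cells, and stmn1b had 0.444 and 1.16 CPM in sp7+ and 0.0944 and 0.338 CPM in sp7- cells, against 4.31 and 3.37 CPM in wildtype fins at 0 dpa. The gap of fosl1a to fins was not confined to 0 dpa. At 4 dpa fosl1a had 399 and 225 CPM in sp7+ and 337 and 368 CPM in sp7- cells, against 2.31 and 3.40 CPM in wildtype fins. Members were counted against fins with sorted cells of 0 dpa only.

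**Figure D4:**
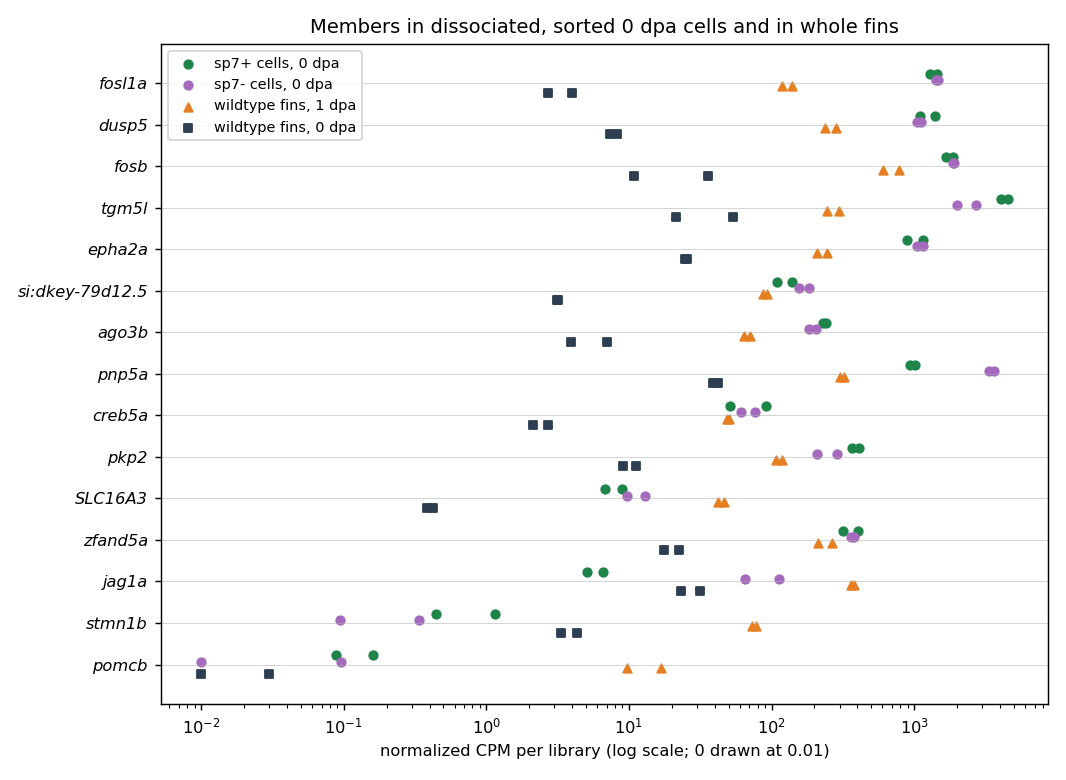
Normalized CPM per library (log scale, 0 drawn at 0.01) of 15 members in sp7+ and sp7- cells at 0 dpa and in wildtype fins at 1 and 0 dpa. fosl1a, dusp5 and fosb lie at 1051 CPM or more in all 4 sorted libraries, while stmn1b and pomcb are lower in sorted cells than in wildtype fins at 1 dpa.

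Between 0 and 4 dpa, members fell in both sorted populations more often than they rose. In sp7+ cells, 29 were lowered (13.1% of all genes) and 9 raised (14.4%), and in sp7- cells 27 were lowered (8.26%) and 3 raised (8.85%). The medians were -0.99 in sp7+ cells and -1.12 in sp7- cells, against 0.16 and -0.02 for all genes. Under library sizes alone, which move the median of all genes by 0.54 in each population, 16 and 11 were lowered and 12 and 7 raised. Leaving out sp7- 4 dpa replicate 1 left 15 lowered in sp7- cells. Summed epidermal markers, 8 of 8 with an identifier, were 25799 to 29427 CPM at 4 dpa against 98587 to 115845 CPM at 0 dpa in sp7+ cells, and 47054 to 58024 CPM against 138545 to 151041 CPM in sp7- cells. The markers did not all move with the sum. tp63 had 68.6 and 80.0 CPM at 4 dpa against 27.6 and 30.1 CPM at 0 dpa in sp7+ cells, and 307 and 457 CPM against 337 and 283 CPM in sp7- cells, where krt4 had 1279 and 2011 CPM against 1149 and 1297 CPM. Their part in the result was not tested, nor that of the dissociation.

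Lowered in both populations were 18 members, against 5.26% of all 18641 genes tested, among them fosl1a, fosb, dusp5, csrnp1b, ago3b, dsc2l, tgm5l and pnp5a. fosl1a had 399 and 225 CPM at 4 dpa against 1457 and 1286 CPM at 0 dpa in sp7+ cells, and 337 and 368 CPM against 1464 and 1428 CPM in sp7- cells. The changes were -2.14 ± 0.28 and -2.04 ± 0.28 (edgeR adjusted p = 0.00137 and 0.00346). Among the largest falls in sp7+ cells, csrnp1a had -3.26 ± 0.29, tgm5l -2.99 ± 0.30 and pnp5a, a purine nucleoside phosphorylase gene, -2.87 ± 0.25 (adjusted p = 5.53e-05, 0.00012 and 6.12e-05). In sp7- cells the largest was -3.97 ± 0.48 for tnfrsf18 (adjusted p = 0.000281), with 2.36 and 1.205 CPM at 4 dpa against 39.2 and 17.2 CPM at 0 dpa.

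adgrb1b was the 1 member raised in both populations, against 6.4% of all genes, with 2.04 and 3.41 CPM at 4 dpa against 0.222 and 0.638 CPM at 0 dpa in sp7+ cells and 9.10 and 8.74 CPM against 0.0944 and 0.338 CPM in sp7- cells. Raised in sp7+ cells were also jag1a (2.22 ± 0.28), epha4a (2.21 ± 0.28), epha7 (1.64 ± 0.29), PTGIR, the prostacyclin receptor (3.23 ± 0.61), tpm4a, a tropomyosin gene, cers3b, a ceramide synthase gene, and the 2 si:ch73-65n21 genes, with edgeR adjusted p between 0.000932 and 0.0278. In sp7- cells stmn1b rose by 3.23 ± 0.54 and plxnb1a by 2.32 ± 0.33 (adjusted p = 0.00362 and 0.00238).

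**Figure D5:**
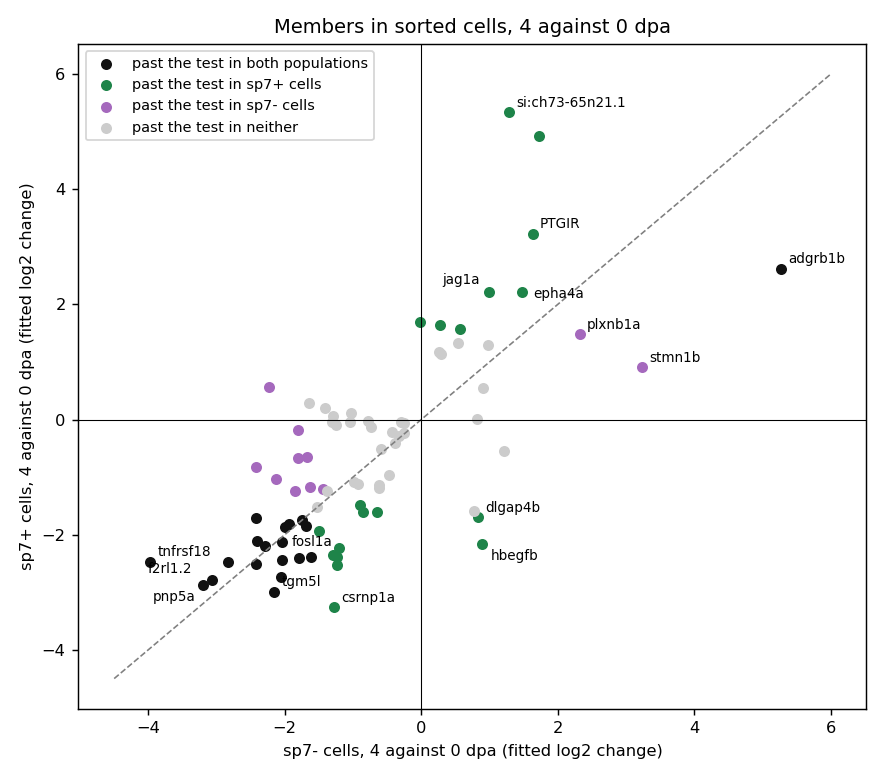
Fitted log2 change at 4 against 0 dpa in sp7+ cells (vertical) and sp7- cells (horizontal) for the 80 members tested, coloured by the population in which the change passed the test. The dashed line marks equal change. Of the members past the test in both populations, 18 lie in the lower left quadrant and adgrb1b in the upper right.

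At 0 dpa 26 members were lower in sp7+ than in sp7- cells (8.44% of all genes) and 5 were higher (9.56%), with a median of -0.56 against -0.07. jag1a had 5.06 and 6.58 CPM in sp7+ and 112 and 65.4 CPM in sp7- cells at 0 dpa (-3.93 ± 0.30, adjusted p = 4.46e-06), and sox21a, a HMG-box factor gene, and cers3b had differences of -3.86 and -3.70. The 5 higher were hbegfb, dlgap4b, a postsynaptic scaffold gene, csrnp1a, gap43 and f2rl1.2. hbegfb had 6.26 and 4.22 CPM in sp7+ and 0.818 and 0.483 CPM in sp7- cells (3.03 ± 0.40, adjusted p = 0.000669), and both sp7+ libraries were above both sp7- ones. At 4 dpa 10 were lower in sp7+ cells (3.14%) and 1, f2rl1.2, was higher (5.87%). sp7+ and sp7- cells of a replicate came from one pool of fins, and with this pairing as a block within each time the counts at 4 dpa were 19 lower and 2 higher. The 10 became 3 without sp7+ 4 dpa replicate 1 and 4 without sp7- 4 dpa replicate 2, and f2rl1.2 was lost without sp7- 4 dpa replicate 1. jag1a again had 25.6 and 28.9 CPM in sp7+ and 168 and 184 CPM in sp7- cells at 4 dpa (-2.69 ± 0.27, adjusted p = 0.000245). The change from 0 to 4 dpa differed between the populations for 9 members (edgeR, difference in change, fitted without the pairing), 3 upward (4.66% of all genes) and 6 downward (3.25%). hbegfb had 1.105 and 1.24 CPM at 4 dpa against 6.26 and 4.22 CPM at 0 dpa in sp7+ cells, and 0.870 and 1.52 CPM against 0.818 and 0.483 CPM in sp7- cells. gap43 had 5.97 and 8.37 CPM at 4 dpa against 12.7 and 8.13 CPM at 0 dpa in sp7+ cells, and 5.47 and 6.52 CPM against 2.77 and 2.41 CPM in sp7- cells.

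Of other genes on the wound response lists, some rose and some fell in the mutant at 1 dpa. Apart from the 4 members on the list (fosl1a, fosl1b, fosb and ATF3), 18 AP-1 and immediate early genes were tested and 1, FOSL2, was raised, while 1, egr2b, was lowered. FOSL2, another Fos family gene, had 295 and 292 CPM at 1 dpa against 58.6 and 43.9 CPM at 0 dpa in mutant fins and rose by 2.52 ± 0.30 (edgeR adjusted p = 0.00131). egr2b, an EGR family zinc finger gene, changed by -2.17 ± 0.45 (adjusted p = 0.0371). Of cytokines and chemokines, 2 of 24 other genes were raised, il1b and il11a, and 5 lowered. Of receptors and feedback genes 2 of 29 were raised and 2 lowered, of proteases and matrix genes 6 of 24 and 1, of growth factors 6 of 25 and 2, and of stress genes 4 of 26 and 2. The counts were 1 of 12 raised and 1 lowered for glycolysis and hypoxia, 1 of 21 and 0 for neutrophil and macrophage markers, 1 of 17 and 1 for interferon genes and 10 of 28 and 1 for cytoskeleton, adhesion and migration. The 1 raised among neutrophil and macrophage markers was il1b, which is also on the cytokine list and is counted in both. The shares of all genes raised and lowered were the 4.78% and 5.24% given above. The 10 lists together hold 11 of the 85 members.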

How the data were processed

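RNA-seq read counts per Ensembl gene were taken as deposited, in 1 table for the 12 unsorted fin libraries and 1 for the 8 sorted libraries. Per the study's methods, the authors aligned reads with STAR (version 2.5.2a in the submitters' processing notes) to GRCz10, kept unique reads and counted exons with featureCounts 1.5.0 without strand, so that reads in overlapping genes and antisense partners cannot be assigned to 1 of them. The deposited counts are whole numbers and are not normalized. 0 columns of other samples were left out.

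Members were chosen on CPM of the column total with 0.5 added before log2. Of their symbols, 41 came from the study's tables and 40 from a gene name table, and 4 members have none. Tests used edgeR 4.0.16 in R 4.3.3 (quasi-likelihood fits, TMM factors, filterByExpr, 1 fit over all groups of an experiment), against a 2-fold change for time and population and against no change for the difference in change, with Benjamini-Hochberg adjustment over all genes tested and a threshold of 0.05. A genotype fit against no change uses the libraries that chose the members, and is given as no test. Python 3.11.15 was used for the rest. The unsorted fit tested 20157 genes, with all 85 members, and the sorted fit 18641, with 80. Counts of 0 were replaced by a floor of 3 over the group, and 95% intervals and floors cover counting error only. Fits were tested on simulated data.

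The members and gene lists were chosen with earlier results of these data known. Genes named were fosl1a, the 10 symbol-bearing members with the highest wildtype rise, up to 4 members per list, those next to each threshold, and the extremes of each comparison. Members named outside this rule, and all roles, were chosen after their values were seen. Some genes are not reported here. Alternatives were DESeq2 1.42.0, its size factors, library sizes alone, no filter, other thresholds, fits of the compared groups alone, each library left out and the replicate number as a block. sp7+ and sp7- cells of a replicate were gated from the same pool of fins, which pairs them within a time (correlation of deviations 0.262 at 0 dpa and 0.130 at 4 dpa). In unsorted fins the correlations ran from -0.152 to 0.270, and the number was not taken as a pairing.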

Additional observations from a re-analysis of the deposited data

Results flagged for a closer look

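In 3 members both mutant libraries were lower at 1 than at 0 dpa while both wildtype libraries were higher, and this difference between genotypes was not tested. The share of all genes with this pattern was not counted, so nothing is read from the number. The wildtype rise is what chose the members, so the wildtype side was fixed by the choice and only the mutant side is a measurement. The mutant changes were -0.79 for csrnp1a, -0.85 for ENSDARG00000086098 and -0.61 for si:ch73-141c7.1, each with an edgeR adjusted p of 1, so none passed as a fall. ENSDARG00000086098 had 18.6 and 19.2 CPM at 1 dpa against 30.1 and 37.9 CPM at 0 dpa in mutant fins, and 38.04 and 34.2 CPM against 3.12 and 3.75 CPM in wildtype fins. si:ch73-141c7.1 had 10.8 and 14.7 CPM at 1 dpa against 19.8 and 19.2 CPM at 0 dpa in mutant fins, and 14.4 and 18.6 CPM against 2.05 and 2.17 CPM in wildtype fins.

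The change from 0 to 4 dpa differed between sp7+ and sp7- cells in 9 members by edgeR's interaction test. Of the 80 members tested, 3 differed upward (3.75%, against 4.66% of all genes) and 6 downward (7.5%, against 3.25% of all genes). Nothing is read from the number. Among them, it was more positive in sp7+ cells for SLC16A3 (1.61, adjusted p = 0.0392) and cers3b (1.72, adjusted p = 0.0251). It was more negative in sp7+ cells for hbegfb (-3.05, adjusted p = 0.00952), dlgap4b (-2.52, adjusted p = 0.00423), ATF3 (-2.36, adjusted p = 0.0399), csrnp1a (-1.98, adjusted p = 0.0124), gap43 (-1.75, adjusted p = 0.0235) and ccng2 (-1.06, adjusted p = 0.0457). The interaction fit left out the pairing of sp7+ and sp7- cells from the same pool of fins, and no alternative to it was run.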

How the results depend on the processing

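For the planned comparisons and the set itself, 204 values under an alternative were within 1.5 times the reported count and 38 were not. These include mutant against wildtype counts at 1 dpa, which test nothing about the members, and fits without a library outside the comparison. The 204 is therefore no measure of stability. Under library sizes alone, the median of members at 4 against 0 dpa in the mutant went from 0.16 to -0.04, and 5 members changed sign. In sp7+ cells at 4 against 0 dpa, 14 members changed sign. None of these was a called member. The causes were not tested beyond what a setting itself changes. The 62 members raised in the mutant at 1 dpa ranged from 51 to 63 with a library left out. The 17 raised at 4 dpa ranged from 10 to 21 and became 26 under a test against no change with a 2-fold filter, 10 in a fit of the 2 groups alone and 8 at a threshold of 0.01. A fit of mutant against wildtype at 1 dpa uses the wildtype libraries that chose the members, so it tests nothing about them. Of all genes, this fit called 0.506% lower in the mutant. Its count of 18 lower in the mutant ranged from 1 to 36 and became 32 with no filter on low counts, 31 in the 2 groups alone, 33 by DESeq2 and 5 at 0.01. Members lowered from 1 to 4 dpa ranged from 43 to 61.

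In sorted cells, members raised ranged from 6 to 10 in sp7+ and 3 to 4 in sp7- cells, and members lowered from 22 to 30 and 15 to 28. Raised in sp7+ cells were 5 by DESeq2, and lowered 16 under library sizes alone. In sp7- cells 7 were raised under library sizes alone, 6 with the 2-fold filter and 5 in the 2 groups alone, and 11, 41 and 17 were lowered under library sizes, the 2-fold filter and 0.01. Higher in sp7+ than sp7- cells at 0 dpa were 5 to 6 with a library left out and 10 with the 2-fold filter, and lower 21 to 27. At 4 dpa, higher were 0 to 1, 2 with no filter, 3 with the 2-fold filter and 2 in the 2 groups alone, and lower 3 to 15, 26 with the 2-fold filter and 18 in the 2 groups alone. The block on pairing within each time gave 19 lower and 2 higher at 4 dpa and changed no other count by over 1.5 times. The replicate block gave 63 raised at 1 dpa, 17 at 4 dpa and 22 lower than wildtype at 1 dpa in unsorted fins.

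The set itself held 172 genes at a rise of 2 (85 shared), 53 at a rise of 3, 42 within 0.5 at 4 dpa, and 76 to 92 with a library left out. No promoter motif search was run. With 2 libraries a group, members with few counts cannot show moderate differences.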
